A study of Mus musculus with 11 samples.

Results

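The 10 genes examined here encode the MHC class I system of the mouse: B2m, H2-K1, H2-D1, H2-Q1, H2-Q2, H2-Q4, H2-Q6, H2-Q7, H2-Q10 and H2-T23. They were taken by name from the 21900 protein-coding genes of the RefSeq table for GRCm38.p6, the assembly also called mm10. For each gene, every deposited peak or segment that overlapped the gene span or the 20 kb on either side of it was collected. The genes were chosen by name with the peaks and segments that these libraries hold near them already known, so the counts and values below are descriptions, with no test. The windows of neighbouring genes met, and the 10 genes fell into 6 separate stretches of the genome: H2-K1, H2-D1, H2-Q1 with H2-Q2 and H2-Q4 (104 kb), H2-Q6 with H2-Q7 and H2-Q10 (89.7 kb), H2-T23, and B2m. All but B2m lie on chromosome 17.

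MHC class I molecules display peptides from inside the cell to CD8 T cells and natural killer cells. A heavy chain, encoded in mouse by the H2-K, H2-D, H2-Q, H2-T and H2-M genes, pairs with the light chain beta-2 microglobulin, the product of B2m, and is loaded with peptide in the endoplasmic reticulum. Transcription of these genes is known to run through an upstream enhancer A bound by NF-kB, an interferon-stimulated response element bound by IRF factors, and an SXY module bound by RFX, ATF/CREB and NF-Y, to which the coactivator Nlrc5 is recruited.

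The series asked where the coactivator Zmiz1 meets activated Notch1 on chromatin. Chromatin immunoprecipitation and sequencing (ChIP-seq) was run on the mouse T-lymphoblastic leukemia line 8946, into which retroviruses had brought an epitope-tagged Zmiz1 with an NGFR marker and an activated Notch1 with a GFP marker; cells carrying both markers were sorted. The Flag line (Flag-Zmiz1/L1601PDP) gave Flag-Zmiz1, ICN1 (the intracellular part of Notch1), Rbpj (the DNA-binding partner of ICN1), H3K4me1, H3K4me3, H3K27me3, H3K27ac and input, and the HA line (HA-Zmiz1/DEGFDLNRDP) gave HA-Zmiz1, ICN1 and input. Every cell in both lines therefore carried ectopic Zmiz1 and ectopic activated Notch1, and no library came from cells without them. The 11 samples were each a group of 1, so nothing here has a replicate error, and any difference between the lines cannot be told apart from a difference in tag, antibody or Notch1 construct. Factor chromatin was fixed with DSG and formaldehyde and histone chromatin with formaldehyde alone.

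Factor libraries held 13.5 to 19.0 M filtered tags against inputs of 26.8 M (HA line) and 36.4 M (Flag line). The lists held 4984 HA-Zmiz1, 581 Flag-Zmiz1, 414 HA-line ICN1, 82 Flag-line ICN1 and 20993 Rbpj peaks, and between 25172 and 46130 histone segments. The depth of the histone libraries is not known. H3K4me3 covered the gene span of 8 of 8 T cell markers, 1 of 4 B cell markers and 2 of 4 myeloid markers. The pair of H3K27 libraries went against their labels: segments of the library labelled H3K27me3 lay over 10 of 10 housekeeping genes and 1 of 10 developmental regulators, and those of the library labelled H3K27ac over 0 and 9. H3K27 acetylation is known to mark active genes and H3K27 trimethylation Polycomb-silenced ones, so both are called only by their labels. The share of all coding genes with a segment over the gene span was not counted. Within 20 kb it was 66.9% for H3K4me3, 64.2% for the library labelled H3K27me3 and 44.9% for that labelled H3K27ac.

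The promoters of 2 classical genes and of the light chain are printed first, because their histone marks differ and because they carry the elements named above. Each is the 250 bases before the RefSeq start (GRCm38.p6), 5′ to 3′ on the strand of the gene: H2-K1 on the minus strand at chr17:34000348-34000597, H2-D1 on the plus strand at chr17:35262844-35263093, and B2m on the plus strand at chr2:122147437-122147686. Capitals mark matches to the palindromic core of enhancer A (11 letters with 1 free position), the core of the interferon-stimulated response element (10 letters with 2 free positions), TGACG (ATF/CREB element of the SXY module), CCAAT (NF-Y) and TGGGAA (core of the Rbpj motif), each searched on both strands, so that ATTGG is CCAAT read from the other strand. No overlap between different motifs occurred in these 3 sequences. H2-K1 has 2 RefSeq promoter entries, of which 1 is printed. The other, chr17:34000334-34000583, also holds a CCAAT at its position 245.
H2-K1: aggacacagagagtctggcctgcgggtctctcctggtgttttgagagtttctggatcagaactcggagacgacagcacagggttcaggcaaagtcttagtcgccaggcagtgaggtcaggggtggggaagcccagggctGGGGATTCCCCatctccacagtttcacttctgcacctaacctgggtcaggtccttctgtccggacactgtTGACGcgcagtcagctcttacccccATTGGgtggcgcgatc
H2-D1: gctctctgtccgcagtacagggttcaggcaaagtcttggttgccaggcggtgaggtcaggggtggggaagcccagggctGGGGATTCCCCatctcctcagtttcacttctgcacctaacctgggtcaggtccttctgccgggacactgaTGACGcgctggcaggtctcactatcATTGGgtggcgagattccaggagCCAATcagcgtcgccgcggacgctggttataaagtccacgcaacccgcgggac
B2m: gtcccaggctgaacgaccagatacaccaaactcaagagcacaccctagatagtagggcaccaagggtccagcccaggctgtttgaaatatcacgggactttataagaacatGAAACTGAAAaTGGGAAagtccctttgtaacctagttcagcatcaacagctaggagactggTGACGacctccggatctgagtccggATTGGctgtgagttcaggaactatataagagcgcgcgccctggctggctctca
Counted from the first base, enhancer A begins at position 140 in H2-K1 and 80 in H2-D1, and TGACG at 210 and 150. The H2-K1 and H2-D1 windows (300 bases, including 50 after the start) aligned over 228 columns with 90.4% identity. In B2m the response element begins at position 112, TGGGAA at 123 and TGACG at 173.

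RefSeq promoter entries were matched for 9 of the 10 genes; H2-Q1 was not matched. The enhancer A core stood in 3 of the 9 (H2-D1, H2-K1 and H2-Q6) and in 15 of all 32851 promoter windows (0.0457%). The 9 are genes, whereas a gene can have several of the 32851 windows, and the 15 include those of these 3 genes. The H2-K1 window aligned with that of H2-D1 at 90.4% identity and that of H2-Q6 at 85.5%. Such similar copies are not separate cases in this or the following counts. CCAAT stood in 8 of 9, all but H2-Q10, against 33.8% of all windows, and TGACG in 5 of 9 (B2m, H2-D1, H2-K1, H2-Q4 and H2-Q7) against 17.8%. The response element core stood in B2m and H2-T23, against 2.98% of windows. TGGGAA was found in 5 of 9 (B2m, H2-Q2, H2-Q4, H2-Q7 and H2-Q10) against 21.6%, and the longer GTGGGAA in 0 of 9 against 5.42%. Over all windows TGGGAA stood in 20.1% of those under an Rbpj peak and 22% of the others, and TGACG stood in 32.3% of the windows under an Rbpj peak and 13.8% of the others. A match says only that the letters are there.

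Class I genes are similar copies, and reads that fit several places limit what can be mapped. At the tag length of 52 bases, H2-Q6 and H2-Q7 shared 31 of the 249 stretches in each 300-base promoter window (12.4%), and their windows aligned with 97.3% identity. H2-T23 shared 35 of 249 (14.1%) with H2-T-ps. The promoter windows of B2m, H2-K1, H2-D1, H2-Q2, H2-Q4 and H2-Q10 shared no such stretch with any other window of the table; gene bodies and the rest of the genome were not compared. The mouse strain behind line 8946 is not given in the sources used here. Class I genes are known to vary in sequence and in copy number between strains, and how well the reads of this line fit the reference at each gene was not tested.

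Within 20 kb, HA-Zmiz1 peaks lay at 4 of the 10 genes (H2-Q1, H2-Q2, H2-T23 and B2m), where 18.3% of all protein-coding genes had one. Rbpj peaks lay at 5 of 10, these 4 and H2-D1, against 58.0%. Flag-Zmiz1 had 1 peak, at H2-D1 (background 2.26%), HA-line ICN1 had 1, at B2m (1.89%), and Flag-line ICN1 had 0 (0.123%). H2-K1, H2-Q4, H2-Q6, H2-Q7 and H2-Q10 had no peak of any factor in their windows. Histone segments were spread more evenly: H3K4me1 at 9 of 10 genes (67.6%), H3K4me3 at 8 (66.9%), the library labelled H3K27me3 at 9 (64.2%) and the library labelled H3K27ac at 2, H2-K1 and H2-Q10 (44.9%). A gene at the same place as its neighbours is not an independent case, and the H2-Q1 and H2-Q2 windows share several of these regions.

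**Figure D1:**
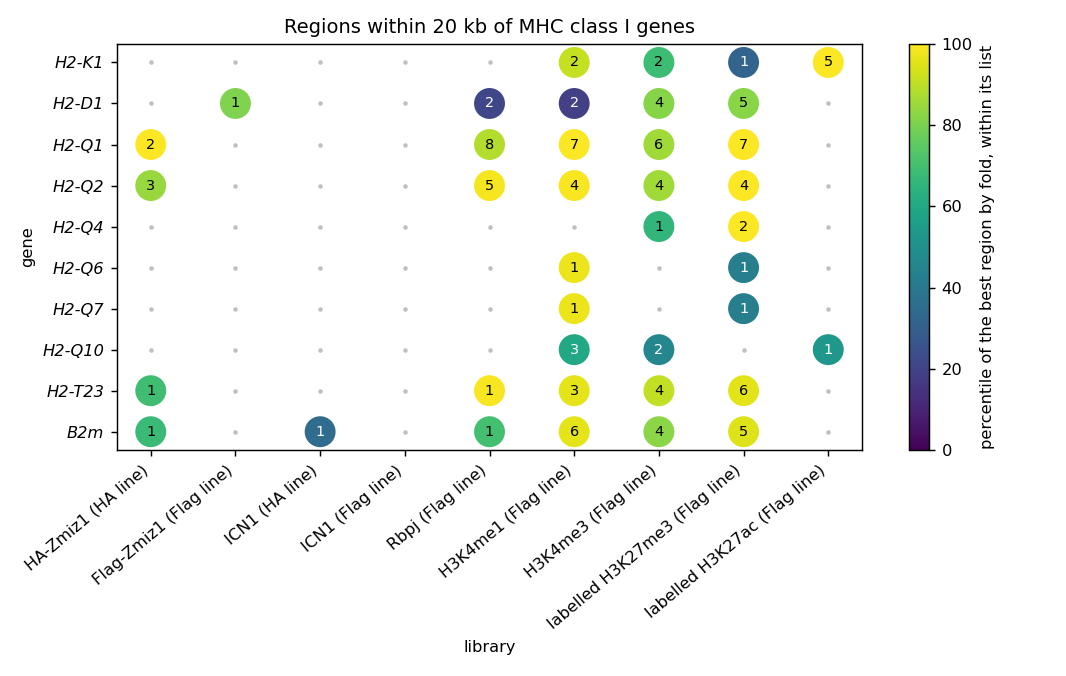
Regions within 20 kb of each gene (rows) in each of the 9 libraries with a deposited list (columns). The number in a circle counts the regions, the colour gives the percentile of the strongest one, by fold, within its own list, and a small grey dot means no region. Factor peaks are gathered at H2-Q1, H2-Q2, H2-T23, B2m and, for Flag-Zmiz1 and Rbpj, H2-D1.

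The window edge decided some of these counts. The nearest Rbpj peak to H2-K1 lay 23.6 kb away with a fold of 12.1, and its nearest Flag-Zmiz1 peak 23.1 kb away with a fold of 5.19, both just outside. H2-Q4 lay 22.3 kb from the joint HA-Zmiz1 and Rbpj site downstream of H2-Q2. H2-Q10 was 39.5 kb from an Rbpj peak, and H2-Q6 and H2-Q7 were 67.5 and 70.2 kb from one. Just inside the edge, an Rbpj peak stood 18.3 kb from H2-Q1 with a fold of 6.36. The HA-line ICN1 list held only 414 peaks. Its nearest peak was 81.6 kb from H2-T23 and between 322 and 941 kb from the other heavy chain genes. The usual distance from a coding gene to a peak of this list was not measured.

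Fold, in a factor list, is the authors' pileup of reads at the summit over the local input background, and ranks are within one list. The 6 distinct HA-Zmiz1 peaks in the windows had folds of 5.16 to 23.5 with a median of 7.50, beside 6.53 for the whole list, and the 13 distinct Rbpj peaks 3.38 to 19.4 with a median of 6.22, beside 6.47. The local input at these peaks was 1.11 to 3.32 times the library mean for HA-Zmiz1 and 1.01 to 7.34 times for Rbpj, and none reached the 10 times by which high-input peaks were set apart. All 6 HA-Zmiz1 peaks lay in segments of H3K4me3 and of the library labelled H3K27me3, 4 in H3K4me1, and 0 in the library labelled H3K27ac. Over all 4984 HA-Zmiz1 peaks the shares were 93.2%, 93.6%, 82.8% and 1.93%, in the same order. Of the same 6, 4 overlapped an Rbpj peak (71.3% of the whole list) and 1 an HA-line ICN1 peak (5.92%).

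**Figure D2:**
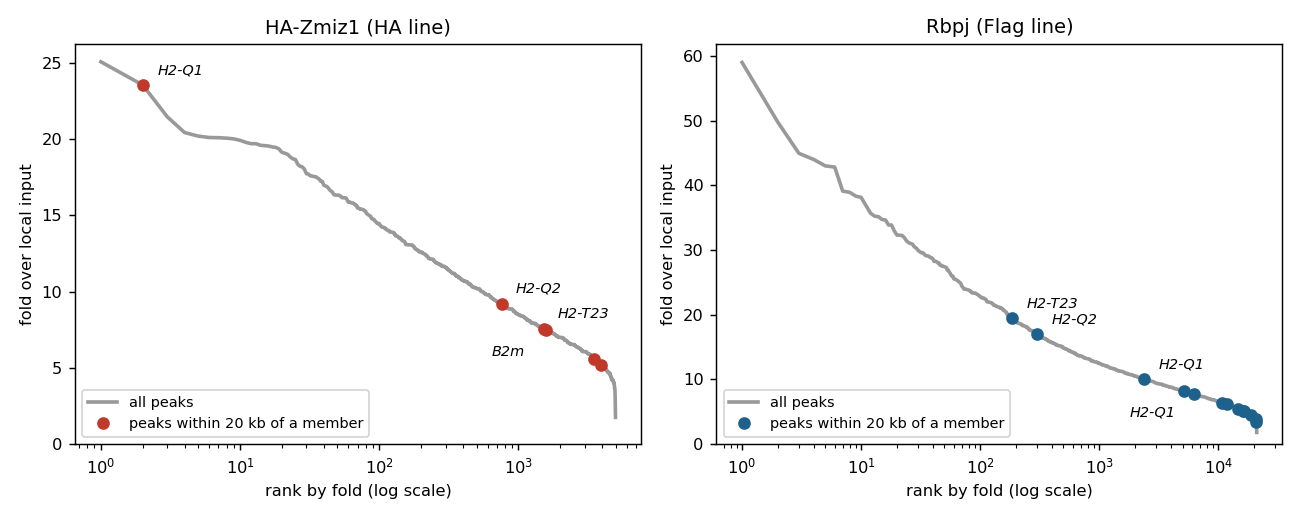
Fold over local input (vertical axis) against rank by fold (horizontal axis, log scale) for all HA-Zmiz1 peaks of the HA line (left) and all Rbpj peaks of the Flag line (right). Coloured points are the 6 and 13 peaks within 20 kb of a class I gene, with the closest class I gene named for the 4 strongest. One HA-Zmiz1 peak, beside H2-Q1, stands at rank 2, and the other 5 run from rank 757 to 3940.

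B2m, the light chain gene (chr2:122147687-122153082, plus strand), was the one class I gene with HA-Zmiz1, ICN1 and Rbpj together. The combination occurred within 20 kb of 334 protein-coding genes (1.53%). HA-line ICN1, with or without the others, occurred within 20 kb of 415 (1.89%). Over the whole HA-line ICN1 list, 96.6% of peaks overlapped Rbpj and 72.9% HA-Zmiz1, so the share mostly follows that of ICN1. Rbpj was measured in the Flag line, whose nearest ICN1 peak was 20596 kb from B2m. The site lay past the 3′ end of B2m, not at its promoter: HA-Zmiz1 at chr2:122159629-122159796, ICN1 at chr2:122159674-122159736 and Rbpj at chr2:122159585-122159835. It is 6.50 to 6.59 kb beyond the gene, inside the span of Patl2, which encloses B2m, and next to Trim69, so the nearest gene was not B2m for any of the 3 peaks. The HA-Zmiz1 summit was 17 bp from the ICN1 summit and 41 bp from the Rbpj summit.

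The ICN1 peak there was shallow, with a pileup of 9 reads (95% Poisson interval 4.12 to 17.1, counting error only), a fold of 5.72 and rank 270 of 414. HA-Zmiz1 had 15 reads (8.4 to 24.7) and a fold of 7.46, and Rbpj 23 reads (14.6 to 34.5) and a fold of 7.76. The nearest Flag-Zmiz1 peak was 632 kb from B2m. The distal site lay inside an H3K4me1 segment (chr2:122154601-122162400) with a fold of 4.15, at the 95.9th percentile of that list, while H3K4me3 over it was 3.0 and the library labelled H3K27me3 3.90. The B2m promoter itself carried H3K4me3 at 14.8-fold (1343 reads against 139 in the control), the library labelled H3K27me3 at 3.24-fold, and no H3K4me1 segment.

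**Figure D3:**
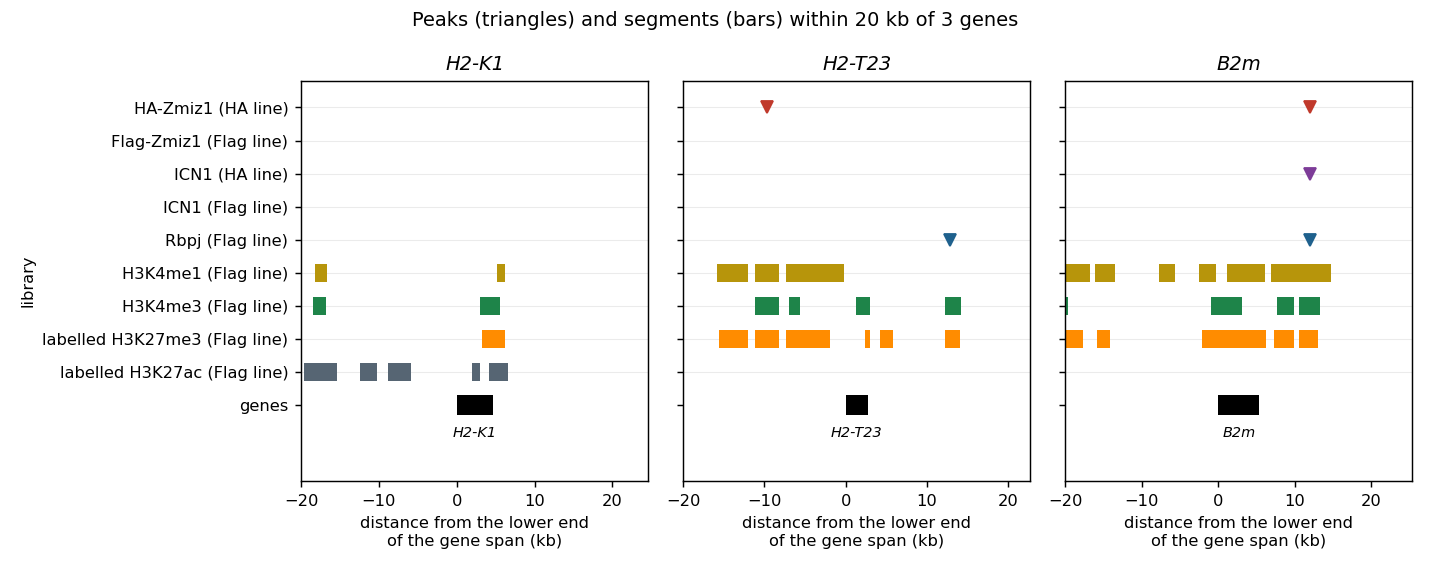
Deposited peaks (triangles at the summit) and segments (bars) by library within 20 kb of H2-K1, H2-T23 and B2m, plotted as distance in kb from the lower end of each gene span, with the gene as a black box. Factor peaks align at 1 place beyond B2m, fall on opposite sides of H2-T23 and are missing at H2-K1, where the 5 segments of the library labelled H3K27ac stand.

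H2-K1 and H2-D1 encode classical heavy chains, the molecules that present peptide to CD8 T cells. Their promoters were alike in sequence, and both bore H3K4me3 and a segment of the library labelled H3K27me3. They differed in that H2-K1 alone bore a segment of the library labelled H3K27ac, and H2-D1 alone one of H3K4me1. At H2-K1 (chr17:33996012-34000619, minus strand) the promoter had an H3K4me3 fold of 9.84 (186 reads against 29; 95% interval 6.63 to 15.1) and at H2-D1 (chr17:35263094-35267497, plus strand) 14.6 (761 against 80; 11.6 to 18.6). Segment folds are the authors' ratios of ChIP to control reads scaled for library size, and the intervals are exact binomial intervals of the read counts, for counting error only. The 2 intervals overlap.

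The library labelled H3K27ac had 5 segments in the H2-K1 window and none in that of H2-D1. One of them lay over the H2-K1 promoter (chr17:34000201-34002600) with a fold of 2.61 (66 reads against 46; 1.76 to 3.89), and another inside the gene (chr17:33998001-33999000) with a fold of 4.60. The strongest, at 6.35 (192 against 55; rank 105 of 25172), lay 15.4 kb from H2-K1 at chr17:33976401-33980600. It overlapped the transcribed pseudogene H2-K2, which was singled out after its values were seen, and H3K4me3 (fold 10.5) and H3K4me1 (fold 3.71) segments lay within it. H3K4me3 and the library labelled H3K27ac met over the promoters of 6.47% of the 17492 genes with an entry, and over 2 of the 9 class I promoters, H2-K1 and H2-Q10. The H2-K1 promoter also had a segment of the library labelled H3K27me3 (fold 2.30, 1.54 to 3.45), and all 3 marks together were found over 2.40% of promoters. Whether one cell holds these marks at once cannot be read from pooled cells.

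H2-D1 was the only class I gene with a Flag-Zmiz1 peak. It lay 2.61 kb past the 3′ end at chr17:35270103-35270207, with a pileup of 27 reads (17.8 to 39.3), a fold of 8.98 and rank 114 of 581. An Rbpj peak lay at the same place (chr17:35270091-35270266, 23 reads, fold 5.15), with summits 9 bp apart, and HA-Zmiz1, whose nearest peak was 40.6 kb away, had none. The site was in no segment of any of the 4 histone libraries. The local input at the Flag-Zmiz1 peak was 4.43 times its library mean. A further Rbpj peak, 4.63 kb before H2-D1 and marginally closer to Ddx39b, an RNA helicase gene, had a fold of 3.85.

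Control reads were dense around H2-D1. Its H3K4me1 segments held 38.1 control reads per kb, beside a median of 22.9 over that list, and its H3K4me3 segments 35.5 beside 26.8. At H2-K1 the same quantities were 17.7 and 11.9. The H3K4me1 segment that ended over the H2-D1 promoter (chr17:35243001-35263800) had a fold of 1.88, at percentile 19.3, and its 39.5 control reads per kb were at percentile 99.5. What the control density contributes to the low folds and to the Flag-Zmiz1 and Rbpj peaks there was not tested.

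The H2-Q genes belong to the Qa region, whose products are mostly nonclassical molecules. Their 6 members divided at about the middle of the cluster. H2-Q1 (chr17:35320525-35328142) and H2-Q2 (chr17:35342307-35346764, plus strand) held 9 of the 13 Rbpj peaks and 4 of the 6 HA-Zmiz1 peaks, whereas H2-Q4, H2-Q6, H2-Q7 and H2-Q10 held none. The strongest HA-Zmiz1 site of any class I gene was 1.60 kb below the lower end of H2-Q1, at chr17:35318730-35318923. It had 36 reads at the summit (25.2 to 49.8), a fold of 23.5 and a −log10 p of 52.4, which made it rank 2 by fold and rank 5 by p among 4984 peaks.

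An Rbpj peak with a fold of 8.17 (20 reads, rank 5127 of 20993) lay at that H2-Q1 site, with its summit 2 bp from that of HA-Zmiz1. No ICN1 peak of either line and no Flag-Zmiz1 peak was listed there. It fell inside the H3K4me3 segment chr17:35317201-35326200, which had a fold of 15.8 (2563 reads against 249), and in a segment of the library labelled H3K27me3, chr17:35315601-35335600, with a fold of 7.05 (2025 against 447). The H3K4me1 segments stopped on either side of it, the lower one (chr17:35317201-35318000) with a fold of 5.45 at percentile 99.6. Other Rbpj peaks at H2-Q1 lay over its lower end (fold 5.50), inside it (5.17) and 3.62 kb above it (10.0).

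**Figure D4:**
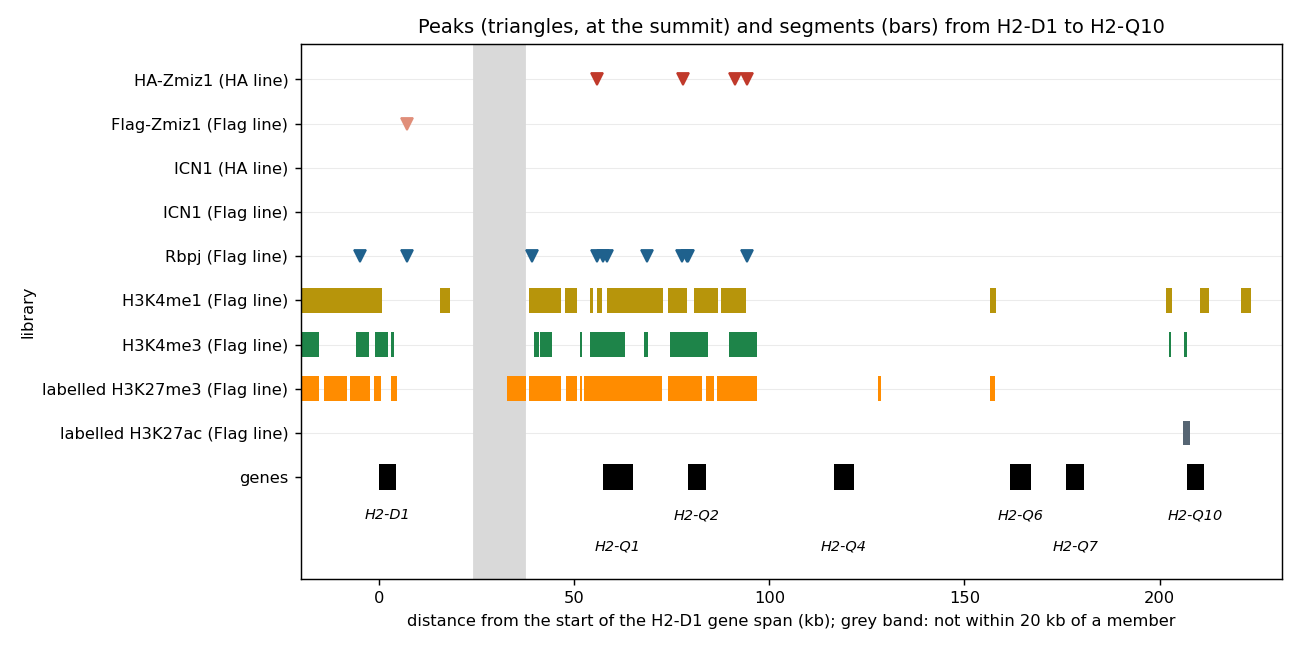
Deposited peaks (triangles at the summit) and segments (bars) by library along the stretch from H2-D1 to H2-Q10, in kb from the start of the H2-D1 span; genes are black boxes, and the grey band lies in no window. Factor peaks and broad segments of H3K4me1, H3K4me3 and the library labelled H3K27me3 fill the stretch around H2-Q1 and H2-Q2, and few regions lie around H2-Q4, H2-Q6 and H2-Q7.

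Of the 9 genes with a promoter entry, H2-Q2 alone had a factor peak over the promoter window. Rbpj peaks overlapped promoter windows of 33.1% of the 17492 genes with an entry and of 1 of the 9 class I genes; HA-Zmiz1 peaks overlapped 3.17% and 0 of 9. Flag-Zmiz1, HA-line ICN1 and Flag-line ICN1 peaks overlapped the promoter windows of 0.0286%, 0.217% and 0% of genes, and of 0 of the 9. The H2-Q2 peak, chr17:35342208-35342297, had 11 reads (5.49 to 19.7) and a fold of 6.22, rank 11743 of 20993. The promoter is printed because the peak falls in it, at chr17:35342057-35342306 on the plus strand (RefSeq, GRCm38.p6), with the motifs in capitals as before.
H2-Q2: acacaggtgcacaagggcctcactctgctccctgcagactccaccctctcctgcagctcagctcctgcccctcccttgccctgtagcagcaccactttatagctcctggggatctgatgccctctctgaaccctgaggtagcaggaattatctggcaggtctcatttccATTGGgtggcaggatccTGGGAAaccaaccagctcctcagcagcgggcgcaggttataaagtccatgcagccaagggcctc
The TGGGAA (chr17:35342243-35342248) lies inside the peak, 10 bp from its summit, and the CCAAT on the opposite strand 3 bp from the summit. Neither TGACG nor the enhancer A core was found in this window. It was less like the classical promoters than H2-K1 and H2-D1 were like each other, with 69.1% identity to H2-D1 over 233 aligned columns.

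Around H2-Q2 there were 3 HA-Zmiz1 peaks. One, 1.26 kb before the gene (chr17:35340692-35341045; 13 reads, fold 5.16), overlapped an Rbpj peak of fold 4.50 with summits 178 bp apart. One, 7.38 kb past the gene (chr17:35354144-35354206; 11 reads, fold 5.60), had no Rbpj peak. The strongest, 10.5 kb past the gene (chr17:35357244-35357315), had 24 reads (15.4 to 35.7), a fold of 9.21 and rank 757, and the Rbpj peak there had 27 reads, a fold of 17 and rank 302 of 20993. Their summits were 5 bp apart. That joint site lies outside any protein-coding gene, in the long noncoding RNA gene Gm52319, named here after its values were seen.

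Over the H2-Q2 promoter, H3K4me3 had a fold of 11.4 (1683 reads against 226; 9.94 to 13.2). The library labelled H3K27me3 had a fold of 9.05 (1227 against 211; 7.81 to 10.5), percentile 99.3 of its list. The latter was the highest of the 5 class I promoters with such a segment: H2-T23 stood at 6.22 (2.48 to 18.6), B2m at 3.24 (2.78 to 3.79), H2-D1 at 2.81 (2.08 to 3.80) and H2-K1 at 2.30 (1.54 to 3.45). The interval of H2-Q2 lay above those of B2m, H2-D1 and H2-K1 and inside that of H2-T23, which rested on 24 reads. The last 3 overlapped one another.

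**Figure D5:**
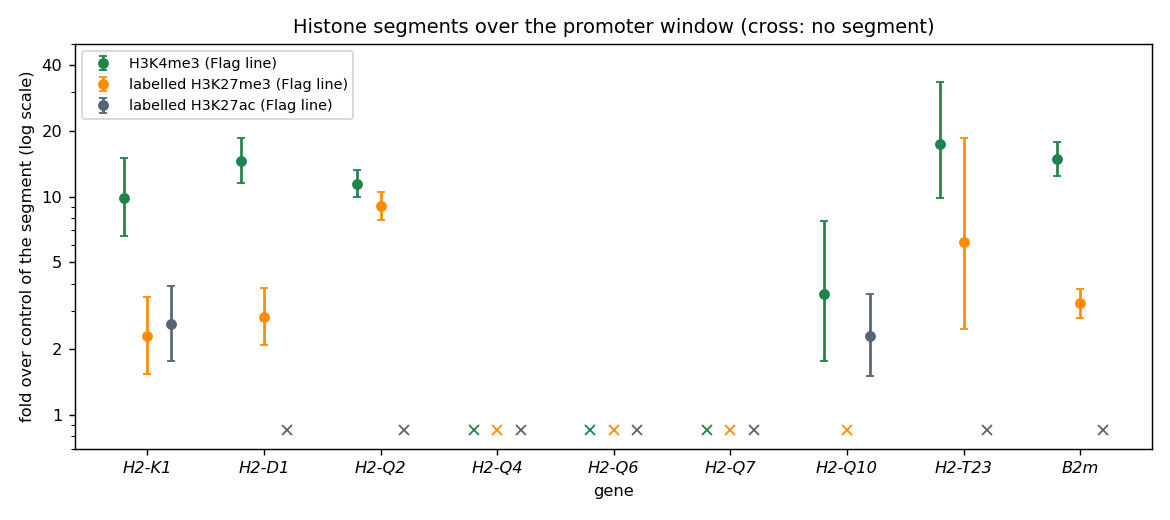
Fold over control (log scale) of the segment over the promoter window of each class I gene with a RefSeq entry, for H3K4me3 and the libraries labelled H3K27me3 and H3K27ac. Bars are 95% exact intervals of the read counts, for counting error only, and crosses mark windows with no segment. H3K4me3 stands above 9-fold at H2-K1, H2-D1, H2-Q2, H2-T23 and B2m and at 3.58 at H2-Q10.

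H2-Q4 (chr17:35379617-35384674), H2-Q6 (chr17:35424850-35430055) and H2-Q7 (chr17:35439140-35443773) had no segment of any histone library over the gene span. The share of all coding genes with such an empty span was not counted. What reads that fit several similar copies contribute to these empty spans was not tested. H2-Q6 and H2-Q7 encode the GPI-anchored molecule Qa-2. Both reached the same small H3K4me1 segment, chr17:35419601-35421200 (98 reads against 28, fold 4.33), and a segment of the library labelled H3K27me3 at nearly the same place, chr17:35419601-35421000, with a fold of 2.59. H2-Q4 had H3K4me3 of fold 9.24 from a segment shared with H2-Q2, and 2 segments of the library labelled H3K27me3, the nearer of which held 23 reads against 4. That H3K4me1 segment held 17.5 control reads per kb, close to the 17.7 at H2-K1 and below the list median of 22.9. No control density could be had where no segment was called.

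H2-Q10 (chr17:35470089-35474563), which encodes a secreted class I molecule known from liver, had small segments. H3K4me3 over its promoter was 3.58 (28 reads against 12; 1.76 to 7.73), the lowest of the 6 class I promoters with a segment, and the library labelled H3K27ac 2.31 (52 against 41; 1.50 to 3.56). The library labelled H3K27me3 had no segment in its window. An H3K4me1 segment over the gene had a fold of 2.45.

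H2-T23 encodes the heavy chain of Qa-1, which presents leader peptides of other class I molecules to the CD94/NKG2A receptor. Its promoter (gene at chr17:36029977-36032701, minus strand) had the highest H3K4me3 fold of the class I promoters, 17.5, but from 148 reads against 13, with an interval of 9.90 to 33.6 that covers the folds of H2-Q2, H2-D1 and B2m. That H2-T23 segment held 7.22 control reads per kb, at percentile 0.310 of its list, beside a list median of 26.8. What the low control density contributes to the fold was not tested. The interval of H2-Q10 lay below those of H2-D1, H2-Q2, H2-T23 and B2m. The HA-Zmiz1 peak in the window (chr17:36020162-36020321; 12 reads, fold 7.53) lay 9.66 kb from H2-T23 and inside H2-T24, another class I gene, with no Rbpj peak.

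The Rbpj peak of the H2-T23 window was the strongest of all 13, with 31 reads (21.1 to 44.0), a fold of 19.4 and rank 185 of 20993. The local input at this peak was 1.01 times the library mean. The peak lay 10.0 kb from H2-T23, at the start of H2-T22, whose product is a nonclassical molecule recognised by some gamma-delta T cells. Over the H2-T22 start, the H3K4me3 segment held 10.5 control reads per kb, at percentile 1.07 of its list. The H2-T22 promoter is shown because this peak, chr17:36042709-36042860, falls in it. The window is chr17:36042743-36042992 on the minus strand (RefSeq, GRCm38.p6), written 5′ to 3′ along the gene.
H2-T22: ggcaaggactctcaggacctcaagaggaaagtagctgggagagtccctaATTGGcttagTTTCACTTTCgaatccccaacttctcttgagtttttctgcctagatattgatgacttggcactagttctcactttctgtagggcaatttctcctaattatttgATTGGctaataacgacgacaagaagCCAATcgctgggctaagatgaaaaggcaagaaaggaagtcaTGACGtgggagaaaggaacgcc
TGACG lies 7 bp from the Rbpj summit, with 2 CCAAT matches 48 and 73 bp away. TGGGAA was not found in the window.

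Where the factor lists met at class I genes, the pairs differed. Of the 13 Rbpj peaks, 4 overlapped HA-Zmiz1, 1 Flag-Zmiz1 and 1 HA-line ICN1, where 16.9%, 0.391% and 1.84% of all 20993 Rbpj peaks did. The 4 shared with HA-Zmiz1 had Rbpj folds of 4.50, 7.76, 8.17 and 17, and the strongest Rbpj peak, at H2-T22, was not among them. By mark, 11 of the 13 Rbpj peaks lay in H3K4me3, 12 in the library labelled H3K27me3, 7 in H3K4me1 and 0 in the library labelled H3K27ac. Over the whole Rbpj list these shares were 87.3%, 86.2%, 57.8% and 5.31%, in the same order. Flag-Zmiz1 and HA-Zmiz1 had no common site within 20 kb of any of the 10 genes, and in the whole lists 4.65% of Flag-Zmiz1 and 0.542% of HA-Zmiz1 peaks overlapped one of the other.

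Median folds of the histone segments in the windows were 3.09 for H3K4me1 (25 segments; 2.43 over the list), 6.90 for H3K4me3 (23; 4.60), 3.19 for the library labelled H3K27me3 (27; 2.84) and 3.05 for the library labelled H3K27ac (6; 2.26). Over promoters, H3K4me3 lay at 6 of 9 class I genes (50% of all genes with an entry), the library labelled H3K27me3 at 5 (45.5%), the library labelled H3K27ac at 2 (16.7%) and H3K4me1 at 1, H2-D1 (25.0%).

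The machinery that makes peptides and loads them on class I molecules was examined as a list. Of 13 antigen-processing genes, 13 had H3K4me3 within 20 kb (66.9% of all coding genes) and 13 the library labelled H3K27me3 (64.2%). Rbpj lay at 11 (58.0%), HA-Zmiz1 at 6 (18.3%) and ICN1 at 1 (1.89%). All 11 with a promoter entry had H3K4me3 over it, where 50% of all genes with an entry had it. The 10 housekeeping genes also all had H3K4me3, the library labelled H3K27me3 and Rbpj within 20 kb. H3K4me3 lay over the promoter of all 8 of them with an entry. The neighbours Psme1 and Psme2 had the same strongest H3K4me3 fold within 20 kb and are not separate cases. Tap1 and Tap2, which pump peptide into the endoplasmic reticulum, and Psmb8, an immunoproteasome subunit, shared one HA-Zmiz1 peak of fold 10.3 and one Rbpj peak of fold 12.8. The neighbouring immunoproteasome gene Psmb9 had HA-Zmiz1 at 9.76. These 4 are 1 locus and not separate cases.

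The 11 regulators of class I transcription all had Rbpj (58.0% of all coding genes) and H3K4me3 (66.9%) within 20 kb. So did all 10 housekeeping genes and all 8 T cell markers, so these full counts are not particular to the regulators. HA-Zmiz1 lay at 2 of 11, near the 18.3% of all coding genes: Irf1 (fold 6.26) and Irf2 (6.03), which bind the interferon-stimulated response element. Irf9, a DNA-binding subunit of an interferon-activated complex, had an Rbpj fold of 13.1. Its neighbour Psme2, of the antigen-processing list, had the same Rbpj fold, and Psme1 and Psme2 the same H3K4me3 fold (24.4). Irf9 and these neighbours are not separate cases. Among 12 other class I and class I-like genes, 8 had Rbpj (58.0% of all coding genes), 4 HA-Zmiz1 (18.3%) and 10 H3K4me3 (66.9%), with HA-Zmiz1 at H2-T24 (7.86), H2-T22 (7.53), Mr1 (7.46), which presents vitamin B metabolites, and Hfe (5.60), the hemochromatosis gene. H2-T22 has its value from the peak also counted for H2-T23.

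Of 9 class II genes, whose products present peptides from outside the cell, 6 had Rbpj (58.0% of all coding genes), 3 HA-Zmiz1 (18.3%), 8 H3K4me3 (66.9%) and 7 the library labelled H3K27ac (44.9%). The last count was 3 of 13, 3 of 11 and 5 of 12 in the other 3 lists. Its class II genes are not separate cases. H2-Ob had the same fold in that library (5.12) as neighbouring class II genes, and so did H2-DMb1 (2.11). HA-Zmiz1 stood at H2-DMb1 (9.76), a peptide exchange factor, Ciita (7.46), the class II coactivator, and H2-Ob (6.06). The value of H2-DMb1 comes from the peak also counted for Psmb9. H3K4me3 covered 2 of 6 class II promoters with an entry, 8 of 8 of the regulators and 5 of 10 of the other class I genes, where 50% of all genes with an entry had it. Flag-Zmiz1 and Flag-line ICN1 were at 0 genes of all 4 lists, where 2.26% and 0.123% of all coding genes had a peak.

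Profiles over the 9 libraries were compared through the percentile of the strongest region within 20 kb among all coding genes with one, taken as 0 where there was none, and by the mean absolute difference. Only genes more than 1 Mb from all 10 class I genes were compared. Nearest to H2-K1 were Nova2 (1.41 percentile points), Pank1 (1.60) and Nab1 (1.89). Nearest to H2-T23 were Ppp6r3 (1.87), Limk2 (2.52) and Prrc2b (2.75). B2m stood further from its nearest, Fgr (5.87), Ptpra (6.08) and Sav1 (6.50), and H2-D1 furthest, from Pole3 (7.93), Ly9 (8.64) and Xrcc3 (9.28). These distances depend on the 0 given to a missing region. H2-K1 had no factor peak, so that genes without factor peaks could match it. B2m and H2-D1 each had a peak in a list that few coding genes share, HA-line ICN1 (1.89%) and Flag-Zmiz1 (2.26%).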

How the data were processed

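Regions were the authors' deposited lists on mm10. Per the submitters' processing notes, Bowtie 0.12.7, FastQC 0.10.0, MACS2 2.0.10, SICER 1.1 and HOMER 4.2 were used. Per the file headers, factor peaks were called with MACS 2.0.10.20120913 at p 1e-05 against the input of the same line, with tags of 52 bp and fragment lengths of 52 to 63 bp, and the HA line headers name pooled reads. The deposited values were a pileup signal, a fold over local input and a −log10 p per peak. Each histone segment had deposited read counts for ChIP and control, a ratio (fold) to control, and a p-value with its false discovery rate. The segments' control library and SICER settings are not given in the sources used here.

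The 10 genes, the lists, the motifs and the alternatives were chosen with earlier results of these data known. All 10 genes are named. Others are named only where a region lies nearer to them, as up to 4 list genes with the highest HA-Zmiz1, then Rbpj fold, or as the 3 nearest profiles of H2-K1, H2-D1, H2-T23 and B2m. An item that this rule covers is not reported here. The 45 list genes all matched by symbol. Overlap meant 1 bp or more. Positions and promoters came from RefSeq GRCm38.p6; exon and intron annotation was not used here. Intervals are 95% exact binomial or Poisson. With 1 library per group no test was run. Local input was recovered as (pileup + 1) / fold − 1. Alternatives were windows of 0, 5 and 50 kb, p of 1e-10, peaks under 10 times the mean input, the upper segments by fold, nearest genes, stricter overlap and ranking by p. Scripts (Python 3.11.15, pandas 2.3.3, numpy 2.4.6, scipy 1.17.1, biopython 1.88, matplotlib 3.10.9) were checked on simulated data.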

Additional observations from a re-analysis of the deposited data

How the results depend on the processing

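No paired analysis was possible because each target and line had 1 library. Asking for a larger overlap left the 5 shared-site counts it was applied to as they were. No factor peak in the 20 kb windows reached the high-input limit of 10 times the library mean. Leaving out high-input peaks therefore could not change any count. Keeping the upper segments by fold gave 8 genes for H3K4me1 (9 in the report), 7 for H3K4me3 (8), 6 for the library labelled H3K27me3 (9) and 2 for the library labelled H3K27ac (2), each within 1.5 times. On the gene span alone, genes with a region numbered 0 for HA-Zmiz1 (4 in the report), 0 for Flag-Zmiz1 (1), 0 for HA-line ICN1 (1), 1 for Rbpj (5) and 5 for H3K4me1 (9). At 5 kb they numbered 2 for HA-Zmiz1, 0 for ICN1 and 3 for Rbpj, and at 50 kb 2 for Flag-Zmiz1, 8 for Rbpj and 4 for the library labelled H3K27ac (2). With only the nearest gene counted, HA-Zmiz1 had 2 genes, ICN1 0 and Rbpj 3. At p of 1e-10 the ICN1 count fell to 0. HA-Zmiz1 sites with Rbpj (4) numbered 2 at 5 kb and 9 at 50 kb; sites of ICN1 with HA-Zmiz1 and with Rbpj (1 each) numbered 0 at 5 kb and 0 at p of 1e-10. The smaller windows and stricter limits hold fewer regions by construction.

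Strongest folds at 5 kb were 5.16 for HA-Zmiz1 and 6.22 for Rbpj at H2-Q2, 2.06 for H3K4me1 at H2-K1, 11.4 for H3K4me3 at H2-Q2, 4.60 for the library labelled H3K27ac at H2-K1, and, for the library labelled H3K27me3, 2.81 at H2-D1, 7.05 at H2-Q1 and 3.24 at B2m. Taking the region of smallest p gave 3.45 for H3K4me1 at B2m, 11.4 for H3K4me3 at H2-D1 and 7.05 for the library labelled H3K27me3 at H2-Q1 and H2-Q2. Factor peaks with pileups of 9 to 15 reads and segments with under 30 ChIP reads are the least precise values in the report.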
